A study of Mus musculus with 21 samples.

Results

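The collagen genes were followed here, 44 of the 55487 gene IDs in the count tables: every protein-coding gene whose mouse symbol is Col, a number, the letter a and a number. They comprise 11 fibrillar, 9 basement membrane, 6 type VI, 9 fibril-associated, 3 short-chain, 4 membrane-spanning and 2 other collagens. Embryoid bodies, aggregates of differentiating mouse embryonic stem cells, were harvested on day 4 from medium with 15% serum and 50 µg per ml ascorbic acid. They were sorted by surface PDGFRalpha and FLK1 (encoded by Pdgfra and Kdr) into cells positive for both (DP) and cells positive for FLK1 only (SP). A reporter line, T-GFP; Etv2-tdTomato (TGET), gave 12 libraries: its DP and SP cells were each divided by tdTomato into Etv2- and Etv2+ cells, and all of these cells carry both reporters. A second set of 9 libraries came from DP and SP cells of wildtype A2lox.Cre embryoid bodies (WT), and from SP cells in which Etv2 was induced with 2 µg per ml doxycycline from day 2.5 (iEtv2). Each of the 7 groups had 3 libraries. Etv2 encodes an ETS-family factor without which blood and endothelium do not form. Sorting on T-GFP, doxycycline in the WT cells and separate cultures for replicates are not mentioned in the labels, so p-values measure the spread between these libraries, which may be technical.

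Collagens are secreted or membrane proteins built from 3 chains wound into a triple helix. Fibrillar collagens such as types I, III and V form the tension-bearing fibrils of connective tissue. Type IV chains assemble into the sheet-like network of basement membranes, where types XV and XVIII are proteoglycans, and type VII anchors that sheet to the tissue below. Fibril-associated collagens sit on fibril surfaces, type VI forms beaded filaments, and membrane-spanning collagens stay in the plasma membrane. Ascorbate is the cofactor of the prolyl and lysyl hydroxylases that modify collagen chains. Endothelial cells lay down a basement membrane rich in type IV chains, while fibroblasts are the main source of types I and III.

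Library totals ran from 22406153 to 32777143 gene counts, and a limit of 3 counts stood for 0.0915 to 0.134 CPM, for counting error only. Levels are TMM-scaled CPM, and levels of different genes are compared only per kilobase of exon (FPKM). Pseudogenes held 12.2 to 14.4% of the reporter line's counts and 0.549 to 0.636% of those in the second set, a sign of unequal counting, so no level is set across the sets. Values after ± are SD for levels and standard errors (SE) for log2 fold changes, with n = 3 libraries per group. Adjusted p-values come from the quasi-likelihood test of edgeR, with the Benjamini-Hochberg method over all tested genes, and a gene was called below 0.05. The sort held in the RNA: Pdgfra was called lower in SP cells than in DP cells for each of the 3 pairs of gates, and Etv2 was called higher in Etv2+ than in Etv2- cells of both gates. The iEtv2 cells had 233, 232 and 250.2 CPM of Etv2 against 88.9, 73.8 and 118 in WT SP cells. In these bulk samples fewer cells of a type and less RNA per cell cannot be told apart.

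Few collagens were abundant. Col4a1 and Col4a2, the chains of the common type IV network, Col1a1, the main chain of type I, Col5a1, a chain of the type V collagen that regulates fibril diameter, and Col18a1, which encodes the proteoglycan that yields endostatin, filled the first 5 places per length in 5 of the 7 groups. The exceptions were WT DP cells, where Col23a1 was in the fifth place, and iEtv2 SP cells. The place of Col23a1 in WT DP cells turns with the length of the longest transcript. In DP Etv2- cells the order was Col4a1 at 23.2 ± 1.2 FPKM, Col5a1 at 14.8 ± 2.52, Col4a2 at 13.7 ± 0.831, Col1a1 at 13.2 ± 8.77 and Col18a1 at 10.1 ± 5.03. The last 4 lay within their SD of each other. Col23a1 came next and close to Col18a1, at 57.3 CPM over 5736 exon bases against 70.8 CPM over 7021. In DP Etv2+ cells Col1a1 led at 64 ± 14 FPKM, ahead of Col4a1 at 36 ± 5.1. In WT SP cells Col4a1 led at 57.8 ± 3.53 FPKM, with Col4a2 at 35.5 ± 2.02 and Col1a1 at 31.5 ± 5.2 close to each other. In iEtv2 SP cells Col4a1 at 136 ± 15.4 FPKM, Col18a1 at 101 ± 1.38 and Col4a2 at 89.5 ± 11.2 stood far above Col14a1 at 8.38 ± 2.36 and Col5a2 at 6.96 ± 1.23. The last pair lay within their SD, and its order turns with the length of the longest transcript. All collagens together took 0.0816 ± 0.0137% of the counts in DP Etv2- cells, 0.139 ± 0.0228% in DP Etv2+, 0.0992 ± 0.00413% in SP Etv2- and 0.119 ± 0.00269% in SP Etv2+ cells. In the second set WT DP cells had 0.119 ± 0.0106%, WT SP cells 0.152 ± 0.0122% and iEtv2 SP cells 0.282 ± 0.0232%.

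**Figure D1:**
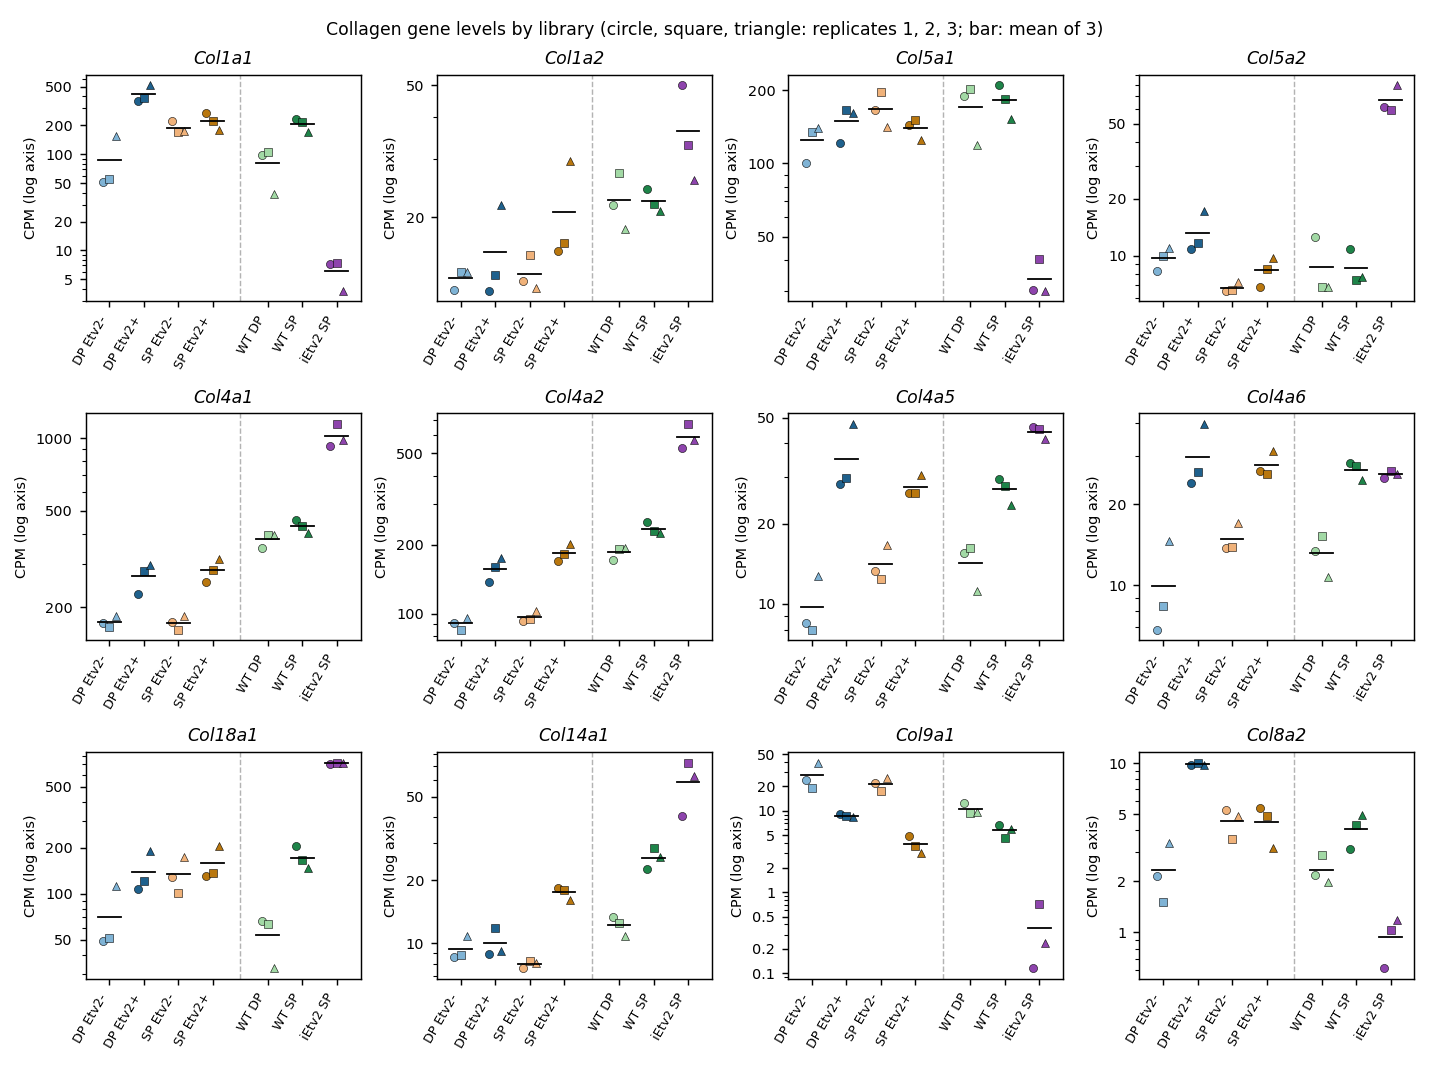
CPM on log axes that differ between panels for 12 collagen genes in each of the 21 libraries, by group, with the mean of 3 as a bar; the dashed line separates the sets, whose levels are not comparable. Col1a1, Col5a1, Col9a1 and Col8a2 are lowest in iEtv2 SP cells within the second set, whereas Col5a2, Col4a1, Col4a2, Col18a1 and Col14a1 are highest there.

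Not every collagen could be tested. In the reporter line 34 of 44 passed the filter on low counts and in the second set 37. The 10 members below it in the reporter line reached at most 0.408 CPM, 11 counts (Col5a3), and the 7 below it in both sets reached at most 0.439 CPM, 13 counts (Col6a4), in the second set. Those 7 were Col4a3 and Col4a4, the kidney-type basement membrane chains, Col6a4, Col6a6, Col8a1, the growth plate gene Col10a1 and Col28a1. Col5a3, Col6a5 and Col15a1 passed the filter in the second set only. Since a gene high in a single group can pass the filter through that group, counts over the tested members are descriptions.

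Sequences upstream of 5 genes on which the results below turn are printed, chosen after their values were seen: Col4a6 and Col4a5, a pair that rose together with the reporter, Col18a1, which rose with induced Etv2, and Col5a1 and Col9a1, which fell with it. They are from RefSeq (GRCm38.p6), 5′ to 3′ on the gene's strand, and stop before the first base that GENCODE M21 annotates as exon. Capitals mark GGAA, the core of ETS factor sites, or TTCC, the same core on the other strand. Col4a6 and Col4a5 lie head to head on chromosome X, with GENCODE M21 starts 1309 bases apart.
Col4a6, chrX:141474077-141474326, minus strand: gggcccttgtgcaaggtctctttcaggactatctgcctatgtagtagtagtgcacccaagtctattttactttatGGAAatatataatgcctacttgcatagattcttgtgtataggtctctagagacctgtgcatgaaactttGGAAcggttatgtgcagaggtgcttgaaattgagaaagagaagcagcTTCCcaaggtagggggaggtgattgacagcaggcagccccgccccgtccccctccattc
Col4a5, chrX:141475169-141475384, plus strand: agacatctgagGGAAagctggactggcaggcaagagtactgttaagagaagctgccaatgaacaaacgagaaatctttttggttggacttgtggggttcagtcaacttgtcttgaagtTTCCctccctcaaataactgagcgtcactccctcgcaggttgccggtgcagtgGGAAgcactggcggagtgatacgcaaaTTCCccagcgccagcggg
Col18a1, chr10:77166549-77166780, minus strand, the outer of 2 starts: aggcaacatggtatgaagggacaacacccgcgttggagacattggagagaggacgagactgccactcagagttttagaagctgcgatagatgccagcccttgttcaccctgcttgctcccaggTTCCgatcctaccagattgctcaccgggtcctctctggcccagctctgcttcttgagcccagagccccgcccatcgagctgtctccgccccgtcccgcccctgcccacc
Col5a1, chr2:27886175-27886424, plus strand: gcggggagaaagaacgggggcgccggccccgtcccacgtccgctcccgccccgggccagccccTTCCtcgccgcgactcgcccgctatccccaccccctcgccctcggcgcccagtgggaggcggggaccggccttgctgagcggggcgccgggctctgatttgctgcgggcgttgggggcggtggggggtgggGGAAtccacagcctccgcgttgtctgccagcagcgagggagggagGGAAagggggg
Col9a1, chr1:24177360-24177609, plus strand, the first of 2 starts: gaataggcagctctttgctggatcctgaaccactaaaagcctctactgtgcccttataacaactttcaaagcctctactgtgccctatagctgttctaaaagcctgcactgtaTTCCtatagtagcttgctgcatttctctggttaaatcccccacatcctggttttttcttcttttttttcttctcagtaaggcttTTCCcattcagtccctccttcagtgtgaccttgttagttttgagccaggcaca

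The first comparison asked which collagens went with Etv2 reporter activity in cells that carry both receptors. The type IV chains Col4a1, Col4a2, Col4a5 and Col4a6 were higher in DP Etv2+ cells, and so were Col1a1 and Col8a2, while the fibril-associated genes Col9a1, Col19a1 and Col22a1 were lower. Of the 34 tested collagens 15 were called, 9 higher and 6 lower (44.1%, against 30.7% of all 17690 tested genes, of which 16% were higher and 14.7% lower), and 8 of them changed at least 2-fold (7.21% of all genes did). The libraries of both groups did not overlap for 17 collagens, as for 42.1% of all genes.
Col1a1 stood at 51.5, 55.3 and 153 CPM in the DP Etv2- libraries and at 354, 382 and 525 in the DP Etv2+ libraries. The groups did not overlap, although DP Etv2- replicate 3 was well above the other two, and the log2 fold change was 2.28 ± 0.34 (adjusted p = 0.000334). Its partner Col1a2, which encodes the second chain of type I, was at 12.1, 13.7 and 13.7 CPM in DP Etv2- and 12, 13.4 and 21.7 in DP Etv2+ libraries and was not called (0.26 ± 0.24).
Of the 6 tested basement membrane genes 5 were called higher. The other, Col7a1, was at -0.31 ± 0.14 and not called, with groups that did not overlap. Col4a5, an X-linked type IV chain, rose from 8.46, 8.01 and 12.7 to 28.1, 29.6 and 47.4 CPM (1.85 ± 0.21, adjusted p = 4.7e-05), and its neighbour Col4a6 rose from 6.85, 8.37 and 14.5 to 24, 26.2 and 39.7 CPM (1.59 ± 0.24, adjusted p = 0.000346). Every Etv2+ library was above every Etv2- library in both genes. Col4a1 rose from 172, 165 and 183 to 225, 282 and 298 CPM (0.63 ± 0.10, adjusted p = 0.000529) and Col4a2 from 91, 85.1 and 96.1 to 137, 159 and 175 CPM (0.79 ± 0.09, adjusted p = 3.83e-05), smaller steps from a far higher level. Col18a1 was at 49.4, 51.3 and 112 CPM in DP Etv2- and 108, 120.4 and 189.7 in DP Etv2+ libraries (0.98 ± 0.32, adjusted p = 0.0323), and here the groups overlapped. This call was lost without DP Etv2- replicate 1 (adjusted p = 0.127), without DP Etv2- replicate 2 (0.126) and without DP Etv2+ replicate 3 (0.143), and in DESeq2 (0.0548).
Col8a2, a short-chain collagen of the matrix beneath the corneal endothelium, rose from 2.15, 1.51 and 3.36 to 9.7, 10.1 and 9.79 CPM (2.08 ± 0.26, adjusted p = 7.53e-05). Col9a1, a cartilage collagen that decorates type II fibrils, fell from 23.8, 18.9 and 39.3 to 9.19, 8.68 and 8.3 CPM (-1.65 ± 0.24, adjusted p = 0.000225). Col22a1, known from tissue junctions, fell from 7.64, 7.65 and 7.16 to 3.42, 3.56 and 2.63 CPM (-1.23 ± 0.16, adjusted p = 0.000125). Among the collagens that stay in the membrane Col23a1 fell, from 65.1, 59.6 and 47.2 to 35.2, 39.5 and 23.7 CPM (-0.81 ± 0.17, adjusted p = 0.00351), and Col26a1 fell as well (-0.76 ± 0.14, adjusted p = 0.00157).
Col9a3, a type IX chain, was at 6.85, 6.72 and 8.07 CPM in DP Etv2- and 8.82, 9.47 and 9.97 in DP Etv2+ libraries (0.39 ± 0.10, adjusted p = 0.0103). Col3a1, the fibril chain of soft tissues, stayed at or below 1.88 CPM in every library and was not called with the reporter in DP (1.20 ± 0.55) or SP cells (-0.95 ± 0.67). A fit that paired libraries by replicate number called it in DP cells (1.20 ± 0.41, adjusted p = 0.0386). The calls of Col11a2, Col12a1 and Col9a3 were also lost when 1 library was left out, with a highest adjusted p of 0.140 for Col12a1 without DP Etv2+ replicate 3. Tested against a minimum change of 1.5-fold, 7 collagens were called.

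The same question was asked of SP cells, gated for FLK1 without PDGFRalpha. The type IV chains were again higher with the reporter, Col14a1 and Col13a1 were higher, and all 3 tested type VI chains were lower. Of the 34 tested collagens 15 were called, 6 higher and 9 lower (44.1%, against 25.5% of all genes, 13.1% higher and 12.4% lower), and 4 changed at least 2-fold (5.12% of all genes). Groups did not overlap for 19 collagens and for 44.8% of all genes.
Among the basement membrane genes 4 of the 6 tested rose and 1, Col7a1, fell. Col4a1 rose from 173, 161 and 183 to 253, 284 and 317 CPM (0.72 ± 0.10, adjusted p = 0.000391), and Col4a2 rose from 93.2, 95 and 102 to 169.9, 181 and 200.1 CPM (0.92 ± 0.09, adjusted p = 3.28e-05). Col4a5 rose from 13.3, 12.4 and 16.6 to 26.1, 26 and 30.3 CPM (0.97 ± 0.21, adjusted p = 0.00512) and Col4a6 from 13.7, 13.8 and 17 to 26.4, 25.8 and 31.4 CPM (0.91 ± 0.24, adjusted p = 0.0135). In all 4 genes the Etv2+ libraries were above every Etv2- library. Col18a1 was at 128, 102 and 174 CPM in SP Etv2- and 131, 137 and 205 in SP Etv2+ libraries and was not called (0.23 ± 0.31).
Col14a1, a fibril-associated collagen, rose from 7.6, 8.22 and 8.04 to 18.3, 18 and 16.1 CPM (1.14 ± 0.12, adjusted p = 6.92e-05), and the groups did not overlap. Col13a1, a membrane-spanning collagen of adhesion sites, rose from 16.5, 13.7 and 13.1 to 25.3, 28.8 and 24 CPM (0.85 ± 0.17, adjusted p = 0.00303). Col9a1 had the largest decrease of the called members, from 21.7, 17.8 and 25 to 4.9, 3.67 and 3.01 CPM (-2.48 ± 0.26, adjusted p = 4.89e-05).
Col26a1 fell in SP cells as it did in DP cells, from 5.84, 6.27 and 5.73 to 3.13, 4.89 and 3.49 CPM (-0.63 ± 0.16, adjusted p = 0.0111). Type VI chains were low: Col6a1 was at 7.88, 7.96 and 10.9 CPM without and 5.78, 5.37 and 5.07 with the reporter (-0.72 ± 0.23, adjusted p = 0.0351), and Col6a2 at 7.45, 5.94 and 7.02 CPM in SP Etv2- and 5.63, 3.89 and 3.97 in SP Etv2+ libraries (-0.60 ± 0.18, adjusted p = 0.0287). Among fibrillar genes Col2a1, the cartilage fibril chain, fell from 8.38, 8.12 and 7.36 to 5.27, 5.6 and 4.83 CPM (-0.61 ± 0.14, adjusted p = 0.00761). Col1a1, at 223, 169 and 175 CPM in SP Etv2- and 267, 223 and 178 in SP Etv2+ libraries, was not called (0.23 ± 0.33), and Col1a2 was not called either (0.62 ± 0.24), though a fit that paired libraries by replicate number called it (0.57, adjusted p = 0.0330).
SP Etv2- replicate 2 and SP Etv2+ replicate 3 had the most ribosomal RNA of the reporter line, up to 1.40% of counts. Without both, 6 collagens were called: Col4a1, Col4a2, Col9a1, Col13a1, Col14a1 and Col22a1. Col4a5 (0.80, adjusted p = 0.0616), Col4a6 (0.76, adjusted p = 0.110), Col2a1 (-0.54, adjusted p = 0.0702), Col26a1 (-0.53, adjusted p = 0.102), Col7a1 (-0.38, adjusted p = 0.118), Col24a1 (-0.34, adjusted p = 0.220) and the 3 type VI genes kept their direction and lost their calls. The calls of Col6a1, Col6a2, Col6a3, Col24a1 and Col4a6 were each lost without at least 1 library, with a highest adjusted p of 0.144, for Col6a3 without SP Etv2- replicate 2, and a minimum change of 1.5-fold left 3 calls.

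The reporter effect itself differed between the gates for 3 collagens, 1 with a larger and 2 with a smaller effect in SP cells (8.82% of the tested members, against 3.97% of all genes, 1.52% larger and 2.45% smaller). Col8a2 rose with the reporter in DP cells and stood at 5.3, 3.57 and 4.84 CPM without and 5.45, 4.89 and 3.15 with it in SP cells (log2 difference of the effects -2.10 ± 0.36, adjusted p = 0.0144). Col14a1 was at 8.58, 8.76 and 10.9 CPM in DP Etv2- and 8.93, 11.9 and 9.23 in DP Etv2+ libraries, was not called in DP cells, and rose in SP cells (difference 1.05 ± 0.18, adjusted p = 0.0135). Col1a1, called in DP and not in SP cells, differed by -2.04 ± 0.47 (adjusted p = 0.0351). Col1a1 lost this call in 8 of the 12 fits that left out 1 library, with a highest adjusted p of 0.0969 without DP Etv2- replicate 2. DP Etv2- replicate 3 stood apart for Col1a1 and Col18a1, and without it 10 collagens were called for this difference. A fit of all libraries with replicate number as a block called 10 as well.

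The gates were then compared. SP cells had less Col26a1, a secreted collagen-domain protein, than DP cells in all 3 pairs of gates. Without the reporter 6 of 34 collagens were called (17.6%, against 10.9% of all genes), 2 higher and 4 lower in SP cells (6.09% and 4.84% of all genes), and 2 of them changed at least 2-fold (2.79%). With it 6 were called (17.6% against 13.9%), 1 higher and 5 lower (6.95% and 6.92%), 3 of them at least 2-fold (2.44%). In WT cells 9 of 37 were called (24.3%, against 15.8%), 6 higher and 3 lower (9.08% and 6.76%), 6 of them at least 2-fold (5.45%). Groups did not overlap for 13, 10 and 17 collagens in these comparisons, against 32.1%, 32.4% and 32.1% of all genes. These tests had no pairing term. With replicate number as a block, 16 collagens were called without the reporter. The block also called more than the main tests with the reporter and in WT cells.
Col26a1 fell from 11.9, 11.4 and 13.8 to 5.84, 6.27 and 5.73 CPM without the reporter (-1.06 ± 0.15, adjusted p = 0.000861) and from 6.43, 8.05 and 7.43 to 3.13, 4.89 and 3.49 with it (-0.93 ± 0.16, adjusted p = 0.00266). In WT cells it fell from 12.6, 14 and 12.4 to 5.61, 6.16 and 6.28 CPM (-1.11 ± 0.20, adjusted p = 0.00415). Col23a1 fell without the reporter (-0.81 ± 0.17, adjusted p = 0.0106) and in WT cells, from 69.3, 66 and 76.6 to 29.8, 30.5 and 29.4 CPM (-1.24 ± 0.16, adjusted p = 0.000466).
Basement membrane collagens were higher in WT SP than in WT DP cells for 4 of 7 tested genes. Col18a1 rose from 65.9, 63 and 32.4 to 204, 165 and 146 CPM (1.67 ± 0.22, adjusted p = 0.000589), Col4a6 from 13.4, 15.2 and 10.8 to 28.4, 27.6 and 24.5 (1.03 ± 0.12, adjusted p = 0.000316) and Col4a5 from 15.5, 16.2 and 11.1 to 29.5, 27.7 and 23.5 (0.91 ± 0.14, adjusted p = 0.0014). None of these 3 genes overlapped between the WT gates. Col4a2 differed by 0.34 ± 0.09 (adjusted p = 0.0301), a call lost when any of the 6 WT libraries was left out, up to an adjusted p of 0.125 without WT SP replicate 1. Col22a1 fell from 5.71, 6.68 and 5.54 to 3.14, 3.65 and 3.6 CPM (-0.79 ± 0.16, adjusted p = 0.00644), and without the reporter it was lower too (-0.65 ± 0.16, adjusted p = 0.0192), a call lost in 4 of the fits that left out 1 library, up to an adjusted p of 0.0772 without SP Etv2- replicate 3. Whether the gate effect differed between the lines was not tested, since the sets were fitted apart.
Col1a1 rose from 99.1, 106 and 38.8 to 234, 218 and 169 CPM in WT cells (1.35 ± 0.32, adjusted p = 0.0159), a call lost without WT SP replicate 1 (adjusted p = 0.0541). Without the reporter its call (1.13 ± 0.33, adjusted p = 0.0475) was lost in 9 of 12 fits that left out 1 library, up to an adjusted p of 0.187 without DP Etv2- replicate 1. With the reporter it was at 354, 382 and 525 CPM in DP and 267, 223 and 178 in SP cells and was not called (-0.92 ± 0.33). Col14a1 rose in WT cells, from 13.3, 12.5 and 10.9 to 22.5, 28.5 and 25.9 CPM (1.06 ± 0.19, adjusted p = 0.00398), and with the reporter (0.81 ± 0.12, adjusted p = 0.00153). With the reporter SP cells also had less Col8a2 (-1.13 ± 0.24, adjusted p = 0.00925), Col9a1 (-1.18 ± 0.26, adjusted p = 0.012) and Col5a2 (-0.67 ± 0.18, adjusted p = 0.0247), from the levels given above and, for Col5a2, 10.9, 11.6 and 17.2 CPM in DP and 6.81, 8.49 and 9.76 in SP cells. The Col9a1 call was lost without SP Etv2+ replicate 3 (adjusted p = 0.0534), and that of Col5a2 without at least 1 library. Col3a1, low in every library, was called lower too (-1.95 ± 0.61, adjusted p = 0.0496). Its call was lost in 9 of 12 fits that left out 1 library, up to an adjusted p of 0.166 without DP Etv2+ replicate 3. Without the reporter Col13a1 was lower (-0.60 ± 0.17, adjusted p = 0.0368) and Col8a2 higher in SP cells (0.97 ± 0.26, adjusted p = 0.0336), calls lost without at least 1 library, up to 0.134 for Col13a1 without DP Etv2- replicate 1 and 0.138 for Col8a2 without DP Etv2- replicate 2.
Leaving out DP Etv2- replicate 3 raised the count without the reporter from 6 to 13, and leaving out DP Etv2- replicate 1, DP Etv2- replicate 2 or SP Etv2- replicate 3 lowered it to 2.

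**Figure D2:**
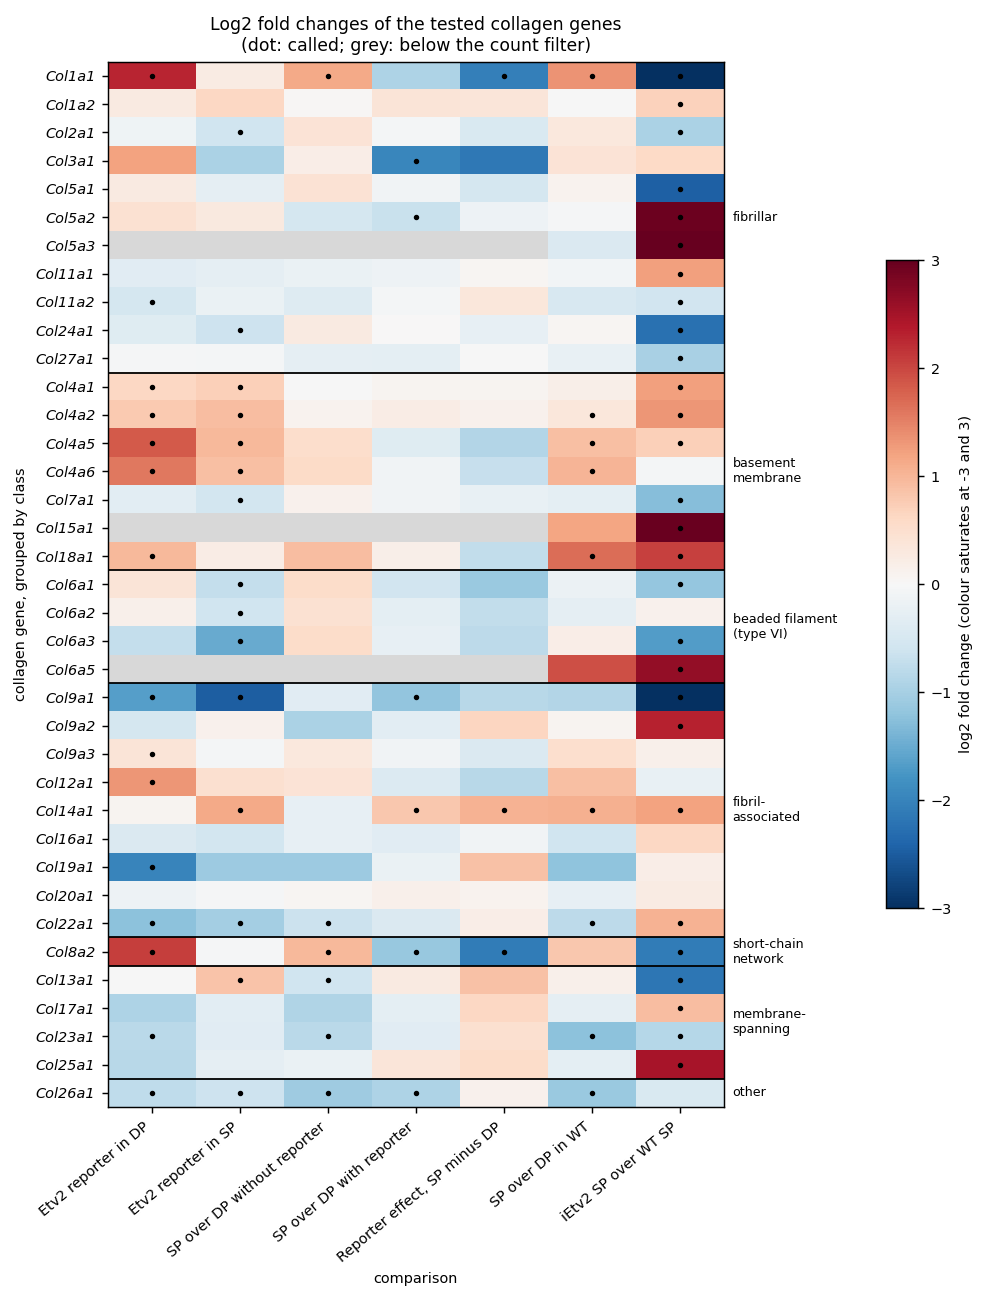
Log2 fold changes of the 37 collagen genes tested in at least 1 set (rows, grouped by class) in the 7 comparisons (columns); red is higher and blue lower in the first-named group, dots mark called genes and grey marks genes below the count filter. The iEtv2 column holds 28 dots, those of the low genes Col5a3, Col6a5 and Col15a1 among them, with red and blue inside the same collagen types. The Col4a1 and Col4a2 rows are red in both reporter columns and the iEtv2 column.

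Induced Etv2 was set against WT cells of the same SP gate to ask which collagens went with raised Etv2. These groups also differ in line, and may differ in doxycycline, which the labels do not mention for WT cells. Neither can be told apart from Etv2 here. Col4a1, Col4a2 and Col18a1 rose from already high levels, Col1a1 and Col5a1 fell steeply, and chains of the same collagen type moved apart. Of the 37 tested collagens 28 were called, 15 higher and 13 lower (75.7%, against 50.8% of all 16288 genes, 26.4% higher and 24.4% lower), and 21 changed at least 2-fold, as 19.3% of all genes did. Of the 15 higher genes Col5a3, Col6a5 and Col15a1 were at or below 0.382 CPM in every WT library and passed the filter on low counts through the iEtv2 libraries, so their calls are not read as results. These low genes are still part of the counts of this comparison and of the collagen median that follows, which are descriptions. The median absolute log2 fold change was 1.196 for the 37 collagens and 0.385 for all genes.
Of the 7 tested basement membrane collagens 5 were called higher, Col15a1 among them, and 1 lower. Col4a1 rose from 457, 431 and 405 to 925, 1146 and 979 CPM (1.24 ± 0.09, adjusted p = 1.96e-06), and Col4a2 rose from 250.1, 229.7 and 225 to 529, 674 and 573 CPM (1.33 ± 0.09, adjusted p = 1.31e-06). Col18a1 rose 4.13-fold, from 204, 165 and 146 to 700.2, 711 and 719 CPM (2.05 ± 0.22, adjusted p = 2.24e-05), and the iEtv2 libraries lay close together. Its relative Col15a1 was near the floor in WT SP cells at 0.314, 0.266 and 0.382 CPM and was at 0.575, 3.77 and 3.25 CPM in iEtv2 cells, a description with no test. Col4a5 rose from 29.5, 27.7 and 23.5 to 46, 45.3 and 41.4 CPM (0.72 ± 0.13, adjusted p = 0.00105), while Col4a6, which starts 1309 bases away, was at 28.4, 27.6 and 24.5 CPM in WT SP against 25, 26.4 and 25.8 in iEtv2 SP libraries and was not called (-0.06 ± 0.12). Col7a1, the anchoring fibril gene, fell from 14.3, 11.9 and 9.8 to 4.18, 6.24 and 4.5 CPM (-1.27 ± 0.25, adjusted p = 0.00136).
The 11 fibrillar genes held 4 called higher (Col5a3 among them), 6 lower and 1 uncalled, Col3a1 (0.59 ± 0.40), which stayed at 1.88, 1.26 and 1.76 CPM in iEtv2 cells. Col1a1 fell 33.7-fold, from 234, 218 and 169 to 7.2, 7.5 and 3.82 CPM (-5.08 ± 0.39, adjusted p = 2.25e-06). Col1a2 was at 24.4, 22 and 20.9 CPM in WT SP against 50.1, 33 and 25.8 in iEtv2 SP libraries (0.70 ± 0.22, adjusted p = 0.0193), a call lost without WT SP replicate 3 (adjusted p = 0.0612) and without iEtv2 SP replicate 1 (0.40, adjusted p = 0.0600).
Type V divided in the same manner. Col5a1 fell from 210.5, 184 and 153 to 30.2, 40.4 and 30.0 CPM (-2.45 ± 0.20, adjusted p = 3.9e-06), whereas Col5a2 rose from 10.8, 7.45 and 7.68 to 61, 59.1 and 80.3 CPM (2.95 ± 0.24, adjusted p = 3.5e-06). The third chain, Col5a3, was at 0.235, 0.076 and 0.212 CPM in WT SP and at 2.68, 1.07 and 1.89 in iEtv2 SP libraries, low levels given with no test. Col11a1, a fibrillar chain that can pair with type V chains, rose from 5.22, 5.74 and 5.6 to 12.6, 13.9 and 12.4 CPM (1.23 ± 0.12, adjusted p = 1.17e-05). Col24a1 fell from 4.55, 5.24 and 4.75 to 0.766, 1.14 and 1.15 CPM (-2.24 ± 0.20, adjusted p = 5.9e-06), and Col27a1, a cartilage fibril gene, fell from 21.4, 29.3 and 28.6 to 10.2, 16.8 and 13.3 (-0.98 ± 0.21, adjusted p = 0.00278).
Among the fibril-associated genes Col9a1 fell from 6.67, 4.6 and 5.94 to 0.115, 0.723 and 0.237 CPM (-3.99 ± 0.39, adjusted p = 1.24e-05). The limit of 3 counts is 0.106 to 0.117 CPM in the iEtv2 libraries, so the size of this fall rests on few counts. Its type IX partner Col9a2 rose from 1.96, 1.82 and 0.636 to 8.24, 6.97 and 6.96 CPM (2.31 ± 0.30, adjusted p = 0.0001). The third type IX chain, Col9a3, was at 14.7, 12.8 and 11.7 CPM in WT SP against 10.5, 17.4 and 15.9 in iEtv2 SP libraries and was not called (0.16 ± 0.20). Col14a1 rose from 22.5, 28.5 and 25.9 to 40.5, 72.8 and 63 CPM (1.20 ± 0.18, adjusted p = 0.000299), and Col22a1 rose from 3.14, 3.65 and 3.6 to 7.74, 6.02 and 7.61 (1.04 ± 0.15, adjusted p = 0.000232).
Type VI parted too: Col6a1 fell from 8.31, 6.57 and 5 to 2.83, 2.89 and 3.18 CPM (-1.16 ± 0.24, adjusted p = 0.00195) and Col6a2 was not called, at 5.33, 5.97 and 5.43 CPM in WT SP against 6.28, 6.36 and 5.65 in iEtv2 SP libraries (0.13 ± 0.12). Of the membrane-spanning genes Col13a1 fell from 47.7, 45.6 and 59.8 to 6.01, 17 and 11.2 CPM (-2.16 ± 0.27, adjusted p = 6.77e-05) and Col23a1 from 29.8, 30.5 and 29.4 to 12.1, 21.4 and 15.7 (-0.87 ± 0.16, adjusted p = 0.00104), while Col25a1, a collagen of neurons and amyloid plaques, rose from 1.84, 2.09 and 1.65 to 8.81, 11.9 and 10.6 CPM (2.48 ± 0.23, adjusted p = 7.04e-06). Col8a2 fell from 3.1, 4.29 and 4.92 to 0.613, 1.03 and 1.18 CPM (-2.11 ± 0.28, adjusted p = 9.88e-05). The groups did not overlap for 30 collagens, the 28 called ones among them, and for 60.4% of all genes. Besides Col1a2, the calls of Col6a3, Col11a2 and Col17a1 were lost without at least 1 library, with a highest adjusted p of 0.139 for Col17a1 without iEtv2 SP replicate 3.

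The balance between partner chains of 1 collagen type differed between groups. The ratio of their counts per kilobase is given for each group as a description, since exact tests of 3 against 3 libraries cannot go below p = 0.10. Col1a1 to Col1a2 stood at 17.4 ± 1.85 in WT SP cells and at 0.328 ± 0.0894 in iEtv2 SP cells, 54.2-fold lower and without overlap. In the reporter line this ratio was 12.3 ± 7.72 in DP Etv2-, 51.8 ± 5.27 in DP Etv2+, 26.9 ± 6.04 in SP Etv2- and 22.8 ± 10.5 in SP Etv2+ cells, and it was 6.66 ± 2.40 in WT DP cells. Within the reporter line it had its highest values in DP Etv2+ libraries, the group with most Col1a1 there.
Col5a1 to Col5a2 was 24.1 ± 3.27 in WT SP and 0.584 ± 0.177 in iEtv2 SP cells, 42.4-fold lower. Col6a1 to Col6a2 was 2.27 ± 0.624 and 0.931 ± 0.120 in the same groups. Neither ratio overlapped between them.
The X-linked pair parted less. Col4a5 to Col4a6 stood at 1.19 ± 0.0464 in WT SP and 2.04 ± 0.139 in iEtv2 SP cells, and at 1.12 to 1.38 as means of the reporter line's groups.
Col4a1 to Col4a2 held a narrow band, from 1.37 ± 0.0448 in SP Etv2+ to 1.70 ± 0.0264 in DP Etv2- cells. In the second set it was 1.82 ± 0.0242 for WT DP, 1.63 ± 0.0354 for WT SP and 1.52 ± 0.0222 for iEtv2 SP cells. Within that band the groups did not overlap in any of the 6 comparisons of 2 groups: the ratio was lower with the reporter in both gates, lower in the SP gate than in the DP gate for the 3 pairs of gates, and lower with induced Etv2. These comparisons share groups. Without the reporter the gates nearly met, at 1.645 in SP Etv2- replicate 1 and 1.672 in DP Etv2- replicate 1. Taking the longest transcript's length in place of all exons rescales each pair's ratio by a constant and leaves the folds between groups as they are. Col1a1 to Col1a2 then stood at 8.31 in WT SP, 0.156 in iEtv2 SP and 24.7 in DP Etv2+ cells, Col5a1 to Col5a2 at 16.8 in WT SP and 0.408 in iEtv2 SP cells, and Col6a1 to Col6a2 at 1.43 and 0.587. Col4a5 to Col4a6 then crossed 1 in SP Etv2- cells, at 0.962.

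**Figure D3:**
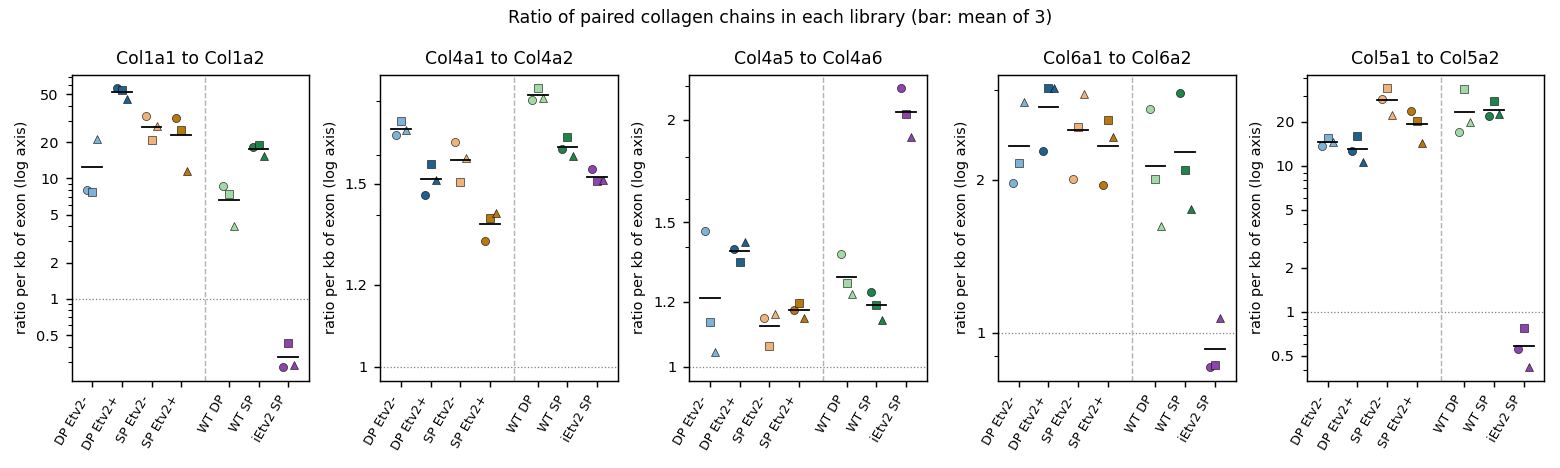
Ratio of paired collagen chains per kilobase of exon, on log axes that differ between panels, in each of the 21 libraries, with the mean of 3 as a bar and a dotted line at 1. The Col1a1 to Col1a2, Col5a1 to Col5a2 and Col6a1 to Col6a2 ratios fall in the iEtv2 SP libraries, Col4a5 to Col4a6 rises, and Col4a1 to Col4a2 stays between 1.32 and 1.85.

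The makeup of collagen RNA followed. Per length, basement membrane genes held 57.9 ± 0.565% of collagen counts in WT SP cells and 88.5 ± 0.641% in iEtv2 SP cells, and fibrillar genes 28.0 ± 1.80% and 4.93 ± 0.386%, without overlap between the groups. In the reporter line the basement membrane share was 44.5 ± 1.06% in DP Etv2-, 44.5 ± 1.14% in DP Etv2+, 44.6 ± 4.5% in SP Etv2- and 55.9 ± 6.06% in SP Etv2+ cells. The SP groups did not overlap, while the DP groups did. The fibrillar share was 29.0 ± 4.4% in DP Etv2- and 43.6 ± 1.52% in DP Etv2+ cells, also without overlap, and 38.9 ± 4.22% and 32.3 ± 4.99% in SP Etv2- and SP Etv2+ cells. Membrane-spanning genes held 13.5 ± 1.75% in WT DP and 7.66 ± 1.34% in WT SP cells, and 1.64 ± 0.422% in iEtv2 SP cells. These shares are descriptions with no test.

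**Figure D4:**
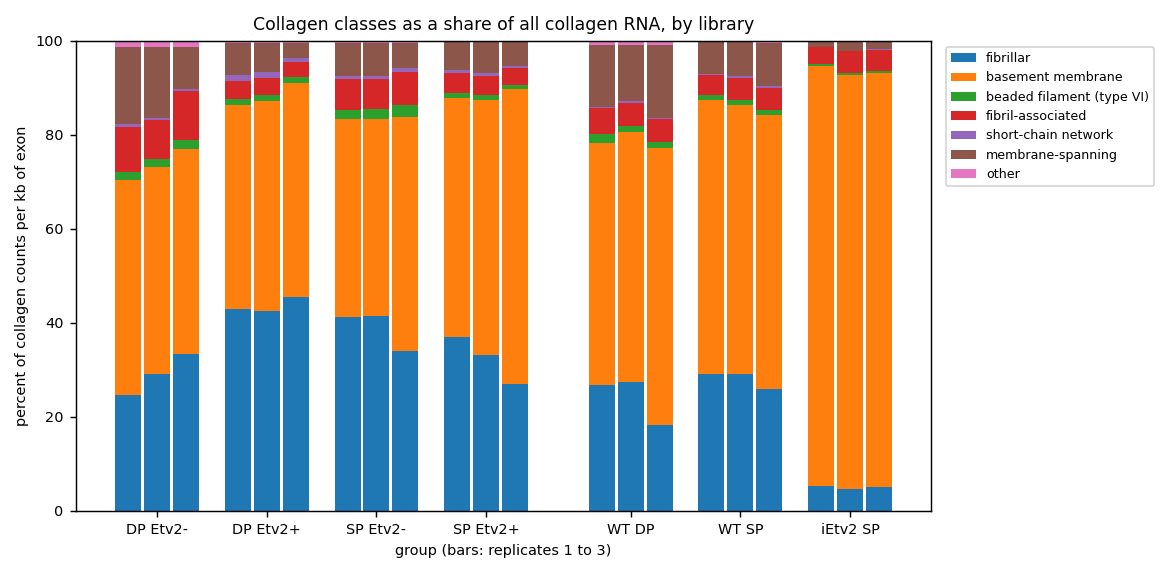
Each bar is 1 library and shows the 7 collagen classes as percent of all collagen counts per kilobase of exon. The basement membrane part fills 88.1 to 89.2% of the iEtv2 SP bars, against 57.3 to 58.3% in WT SP cells, and the fibrillar part shrinks to 4.53 to 5.30%.

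Genes of the collagen pathway, from lists that cover its steps, moved in part with the collagens. Beside each count stands the share of the list called, to be read against 30.7% of all genes for the reporter in DP, 25.5% in SP and 50.8% with induced Etv2. Among the 18 tested genes of hydroxylation, glycosylation and folding, 11 were higher and 1 lower in DP Etv2+ cells (66.7%), among them the collagen chaperone Serpinh1 (0.78 ± 0.10) and Fkbp10 (0.68 ± 0.06). P3h2, a prolyl 3-hydroxylase, went the other way, at -0.89 ± 0.13 in DP and -1.15 ± 0.13 in SP cells with the reporter, and fell by 3.59 on the log2 scale with induced Etv2 (adjusted p = 6.87e-07). In SP cells with the reporter 7 were higher and 3 lower (55.6%), with the prolyl 4-hydroxylase subunit P4ha2 (-1.13 ± 0.29) and the lysyl hydroxylase Plod2 (-0.60 ± 0.17) among the lower. In iEtv2 cells 3 of 19 were higher and 9 lower (63.2%), with P3h3 (1.02 ± 0.14) and Plod2 (0.62 ± 0.09) higher.
Of the 14 tested genes for propeptide removal and cross-linking, 4 rose and 8 fell with induced Etv2 (85.7%). With the reporter 6 of 13 rose in DP (46.2%), and 3 rose and 1 fell in SP cells (30.8%). Pcolce, an enhancer of procollagen cleavage, fell (-2.52 ± 0.20, adjusted p = 2.39e-06), and rose with the reporter in DP (2.04 ± 0.16) and SP cells (0.99 ± 0.15). Its relative Pcolce2 fell with induced Etv2 (-1.79 ± 0.13). The transglutaminase Tgm2 rose (2.91 ± 0.29, adjusted p = 1.35e-05). Adamts2, which removes N-propeptides, rose with the reporter in DP cells (1.39 ± 0.32), and the lysyl oxidase family gene Loxl2 fell in SP cells (-1.25 ± 0.35). Among collagen receptors, with 2 of 7 tested higher and 1 lower (42.9%), the integrin chain Itga1 rose with induced Etv2 (3.07 ± 0.23, adjusted p = 1.64e-06). With the reporter in DP cells 2 of 6 tested receptors rose and 1 fell (50%). The discoidin receptor Ddr1 was among those that rose (1.58 ± 0.20, adjusted p = 8.36e-05).
Basement membrane partners rose for 8 of 11 and fell for 2 in DP Etv2+ cells (90.9%), with Lama4 (1.68 ± 0.22) and the linker protein Nid1 (1.32 ± 0.19) in front. In SP cells with the reporter only 2 of the 11 rose and 0 fell (18.2%). With induced Etv2, 5 rose and 4 fell (81.8%): Nid1 rose (1.06 ± 0.14) and the laminin chains Lama4 (-1.28 ± 0.22) and Lama1 (-0.90 ± 0.12) fell, against the direction of Col4a1 and Col4a2. Among fibril partners, 5 of 7 rose and 2 fell with the reporter in DP cells (100%), and 2 rose and 1 fell in SP cells (42.9%). With induced Etv2 1 rose and 4 fell (71.4%), where the small proteoglycan Bgn went down (-1.18 ± 0.20, adjusted p = 0.000639). For breakdown genes 3 of 9 rose and 2 fell with induced Etv2 (55.6%), the inhibitor Timp3 most (1.77 ± 0.37). With the reporter 3 of 9 rose in DP (33.3%), and 2 rose and 1 fell in SP cells (33.3%), shares near those of all genes. Mmp9, a protease that cuts type IV collagen, rose with the reporter in DP (1.67 ± 0.26) and SP cells (1.53 ± 0.25).

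The reporter and the induction do not share libraries, so their calls can be set side by side. Of the 15 collagens called with the reporter in SP cells, 12 (80% of them, and 42.9% of the 28 called with induced Etv2) were called in both. Over all genes tested in both sets, 63.3% of those called with the reporter in SP cells and 34.1% of those called with induced Etv2 were called in both, and 37.4% of these had the same direction. Of the 12 collagens 10 went the same way: Col4a1, Col4a2, Col4a5 and Col14a1 up, and Col2a1, Col6a1, Col6a3, Col7a1, Col9a1 and Col24a1 down. Col13a1 and Col22a1 went opposite ways. Among the 10, Col4a5, Col2a1, Col6a1, Col6a3, Col7a1 and Col24a1 are those whose reporter call was lost without the libraries of high ribosomal RNA share. In DP cells 10 of the 15 reporter calls were called with the induction (66.7% and 35.7%, against 60.6% and 40.4% over all genes), and 7 had the same direction, as had 37.9% of all genes called in both. Col1a1 and Col8a2 rose with the reporter in DP cells and fell with the induction, and Col22a1 fell and rose. Between the gates, 4 of the 6 calls without the reporter were called in WT cells with the same direction (66.7% and 44.4%, against 59.2% and 43.3% over all genes), namely Col1a1, Col22a1, Col23a1 and Col26a1. Of the 6 with the reporter, 2 were (33.3% and 22.2%, against 33.9% and 28.7%), Col14a1 and Col26a1.

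Markers of other cell types moved with some of these groups. Counts of called markers are to be read against 25.5% of all genes for the reporter in SP and 50.8% with induced Etv2. Summed over 10 fibroblast markers, the level ran from 51.3 to 68.8 CPM in DP Etv2-, 88.2 to 119 in DP Etv2+, 55.3 to 64.6 in SP Etv2- and 52.1 to 69.9 in SP Etv2+ libraries, and from 44.2 to 58.3 in WT and 22.8 to 26.2 in iEtv2 libraries. The sum was highest in DP Etv2+ and lowest in iEtv2 libraries, as was Col1a1 within each set, and most of it was a single gene, Pdgfrb, at 42.2 to 104 CPM in the reporter line and up to 51.5 CPM in the second set. Of the 10 markers 5 (Dcn, Lum, Fap, Dpt and S100a4) were below the count filter in both sets, and Dpt had 0 counts in every library. With induced Etv2, 1 of the 5 tested rose and 3 fell (80% called). The 6 endothelial markers summed to 34.1 to 78.9 CPM in SP Etv2+ against 6.27 to 14.3 in SP Etv2- libraries, to 8.34 to 21.8 in DP Etv2+ against 2.23 to 5.62 in DP Etv2-, to 40.4 to 72.7 in WT SP against 3.88 to 7.48 in WT DP, and to 764 to 1193 in iEtv2 libraries, where all 6 were called higher. The 5 smooth muscle markers summed to 103 to 108 CPM in DP Etv2+ against 33.4 to 34.8 in DP Etv2- libraries, and to 17.1 to 23.3 CPM in iEtv2 against 41.0 to 50.3 in WT SP libraries. The 8 chondrogenic markers ran from 37.6 to 65.4 CPM in SP Etv2+ against 20.6 to 23.8 in SP Etv2- libraries. Of these markers, Hapln1 ranged from 0.235 to 50.1 CPM and Sox9 from 11.3 to 20.1 CPM over the reporter line. With the reporter in SP cells 2 of the 6 tested were called (33.3%, against 25.5% of all genes). Visceral and parietal endoderm markers, 12 in all, summed to 52.2 to 62.9 CPM in WT SP and 37.0 to 62.0 in iEtv2 libraries, and the 6 neuroectoderm markers to 113 to 154 and 192 to 239 CPM. The 6 blood markers summed to 12.9 to 29.4 CPM in WT SP and 33.3 to 44.6 in iEtv2 libraries, and to 11.3 to 34.3 in SP Etv2+ against 2.36 to 4.6 in SP Etv2- libraries. Of the 4 tested blood markers 2 were called higher and 2 lower with induced Etv2, and Itga2b alone reached 39.8 CPM in the second set. With the reporter in SP cells all 4 were called higher. The part of these cell types in the collagen results was not tested.

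Upstream windows of 250 bases were available for 35 of the 44 collagens (38 windows, RefSeq GRCm38.p6), and not for Col1a1, Col5a2 or Col14a1. Of the 38 windows 20 held no annotated exon base. The windows of Col4a1 and Col4a2 were annotated exon over all 250 bases. The ETS core GGAA or its complement TTCC lay in 38 of 38, as in 93.4% of the 32851 windows of all genes, with a median of 3 matches in both. The longer ETS motif CCGGAAGT or ACTTCCGG was in 0 of 38 windows and in 2.88% of all. The CCAAT box was in 13 of the 38 and TATAAA in 5, against 33.8% and 12.4% of all windows, both strands counted. In the stretches printed above the core stands 3 times upstream of Col4a6, 4 times upstream of Col4a5, 3 times for Col5a1, 2 times for Col9a1 and 1 time for Col18a1. The windows of the second starts, not printed, hold it 3 times for Col9a1 and 8 times for Col18a1, where 241 of the 250 bases are annotated exon. The longer motif holds the core within it. On chromosome 8 the first exons of Col4a1 and Col4a2, on opposite strands, overlap by 22 bases.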

How the data were processed

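The members and gene lists were chosen with earlier results of these data known. RNA was prepared with a stranded total RNA kit, per the labels' protocols. What the authors deposited were whole read counts for each Ensembl gene, and the submitters' processing notes name featureCounts and mm10. The aligner, annotation and strand setting are not given in the sources used here, and the 9 second-set files carry summary entries for unmapped, multimapping, featureless and ambiguous reads that the reporter files lack, left out here, so how both sets were counted may differ. Names and exon lengths came from GENCODE M21 and matched 55227 of 55487 IDs, with 260 unnamed. At least 96.3% of each collagen's 50-base windows occur in no other gene, and Col9a3 shares 6.07% of its exon bases with Tcfl5 on the other strand.

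Tests used R 4.3.3 with edgeR 4.0.16: TMM scaling, filterByExpr and quasi-likelihood tests of a term per group, fitted per set over 12 and 9 libraries, two-sided, in 7 comparisons. Standard errors are the absolute log2 fold change over the square root of F. Per-library values are given for called members with a mean of at least 5 CPM over the set, up to 3 per class and comparison by absolute log2 fold change, and for Col1a1, Col1a2, Col3a1, Col4a1, Col4a2 and Col18a1. From the 6 pathway lists up to 3 called genes per comparison are named by the same threshold. Other collagens were named after their values were seen. Chain ratios and class shares have no test. Scripts were tested on simulated data.

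Same-numbered libraries correlated after group means were removed by 0.175 to 0.342 for the reporter in DP and 0.143 to 0.268 in SP, so these numbers were taken to pair libraries. The main tests had no pairing term. Each comparison was refitted with scaling by RLE or by upper quartiles, without the filter or with a filter of 1 CPM in 3 libraries, in DESeq2 1.42.0, with replicate number as a block, on the compared groups alone, after dropping mitochondrial, rRNA and pseudogene entries, against a 1.5-fold minimum, and without each library in turn. A fit that drops SP Etv2- replicate 2 and SP Etv2+ replicate 3, chosen after seeing the data, was added. In the second set ribosomal RNA held 0.682 to 2.28% of counts, most in WT DP replicate 3, and no fit there dropped libraries for it.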

Additional observations from a re-analysis of the deposited data

Results flagged for a closer look

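The reporter effect of 3 collagens differed between the gates by an interaction test. Its size in SP minus that in DP cells was -2.10 on the log2 scale for Col8a2, -2.04 for Col1a1 and 1.05 for Col14a1. For 4 further pairs every library of 1 background moved one way between the gates and every library of the other moved the opposite way, a difference that was not tested because the sets were fitted apart. In each gate comparison 32.1 to 32.4% of all genes had groups that did not overlap. Of the 8 values only Col8a2 with the reporter and Col1a1 and Col14a1 in WT cells were called (edgeR). Col8a2 differed by -1.13 from DP to SP cells with the reporter and by 0.81 ± 0.26 in WT cells. Col1a1 differed by -0.92 with the reporter and by 1.35 ± 0.32 in WT cells. Col14a1 differed by -0.24 without the reporter and by 1.06 ± 0.19 in WT cells, and Col6a2 by 0.46 without the reporter and by -0.26 ± 0.12 in WT cells.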

How the results depend on the processing

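No collagen reversed its direction where it was called, over 244 results of which 82 were called. In at least 1 setting or left-out library 49 of the 82 calls were lost, and 54 uncalled results gained a call. The 7 counts kept within 1.5 times under RLE and upper-quartile scaling, 1 CPM in 3 libraries, removal of mitochondrial, rRNA and pseudogene rows and only the compared groups. A minimum change of 1.5-fold gave 7 and 3 calls for the reporter in DP and SP, 0 for the gates without and with the reporter, 0 for the difference of the reporter effects, 3 in WT and 20 with induced Etv2 (glmTreat of edgeR). At an unadjusted p below 0.05 the 3 counts of 0 were 5, 5 and 6, and DESeq2 without a minimum change called 7, 6 and 6. Without a filter on low counts, the calls were 16 and 12 for the gates without and with the reporter, 13 for the difference and 15 in WT. Without both libraries of high ribosomal RNA share 6 were called for the reporter in SP. Between the gates same-numbered libraries correlated by 0.0962 to 0.334 without the reporter, 0.0767 to 0.269 with it and 0.0916 to 0.342 in WT. Differently numbered libraries reached at most 0.0502, 0.0662 and 0.0879. In each a same-numbered value fell below the threshold of 0.1, so pairing was not taken to hold between the gates. Every same-numbered value was still above every differently numbered one, so whether libraries are paired between the gates is undecided. The replicate block gave 16 and 11 calls for the gates without and with the reporter and 10 for the difference. In the reporter comparisons, where pairing was taken to hold, it called 18 in DP and 19 in SP and ended no call, adding Col3a1, Col5a2 and Col11a1 in DP and Col1a2, Col16a1, Col19a1 and Col23a1 in SP. The cause of these moves was not tested. Leaving out 1 library gave 12 to 16 calls for the reporter in DP and in SP, 2 to 13 and 4 to 7 for the gates without and with it, 2 to 10 for the difference, 8 to 11 in WT and 25 to 29 with induced Etv2. Col5a3, Col6a5 and Col15a1 stayed under 1 CPM in every WT library and rest on few counts there.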
